A study of Mus musculus with 4 samples.

Results

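The narrow regions of DNMT3B enrichment that lay at the edge of a gene or just upstream of one were described in lung metastases of 4T1 cells, a mouse mammary tumour line grown in BALB/c mice. They were taken from the MACS list of the series, in which each region carries a wording of how it lies to its nearest gene. A region was a gene-edge region when its wording gave a partial overlap with a gene and did not call it contained in any. Some of these wordings, as at Tcea1, Igfbp2, Maff and Shoc2, also place the region in an intron. There the bases counted as outside the overlapped transcript can still lie within a gene. An upstream region lay 1 to 1000 bp upstream of its nearest gene. Regions on chromosome 16 were left out. Of 1371 distinct regions outside that chromosome, 390 (28.4%) were members, 159 (11.6%) at a gene edge and 231 (16.8%) upstream. The other 981 regions were contained in a gene (520), lay in an intron only (342), farther upstream (65) or downstream (53), and 1 had another overlap.

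The series held 2 DNMT3B ChIP libraries and 2 input libraries, each kind with the lung labels 3 and 5, all from lung metastases of the same line and strain. The labels do not say whether these are separate mice, and the metastatic lung tissue can hold host cells beside the tumour cells. Both deposited lists cover the whole series and have no value per library, so the depth of the libraries is unknown and no spread between replicates can be given. Regions are not replicates of a condition, and the intervals and tests describe where the listed regions lie and cover counting error only.

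DNMT3B is a DNA methyltransferase that adds methyl groups to cytosines that were not methylated before, mainly where a cytosine is followed by a guanine (CpG). Most of the mammalian genome has few CpGs, whereas many gene starts lie in CpG-rich stretches that are usually unmethylated in normal cells. Methylation gained at such starts in tumours often accompanies silencing of the gene. MACS is built to find narrow peaks and SICER to find broad islands of enrichment, so both callers can mark the same stretch at different widths. The name of the SICER list marks it as a top selection. A region said here to lie in no island may therefore lie in one that was not listed.

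The promoters of 8 genes are shown to make visible how much their CpG content differed, chosen among genes with several members or in a gene list described further on that have a promoter in the RefSeq table. The first 5 belong to genes with a region placed to 10 bp that lay in a SICER island, Slk had the most CpGs among the rest of those genes, and Rassf5 and Rptor the fewest. Each line gives the 250 bases before the outermost RefSeq start of the gene (GRCm38.p6), 5′ to 3′ on its strand, with every CpG in capitals. That start need not be the one at which the region of the gene lay.
Ap5b1: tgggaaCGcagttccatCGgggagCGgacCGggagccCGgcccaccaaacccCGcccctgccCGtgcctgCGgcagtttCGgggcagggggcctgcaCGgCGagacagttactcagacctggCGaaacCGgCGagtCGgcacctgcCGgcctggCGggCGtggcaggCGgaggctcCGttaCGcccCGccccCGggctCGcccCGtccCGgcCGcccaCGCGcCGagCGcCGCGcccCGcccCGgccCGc
Rela: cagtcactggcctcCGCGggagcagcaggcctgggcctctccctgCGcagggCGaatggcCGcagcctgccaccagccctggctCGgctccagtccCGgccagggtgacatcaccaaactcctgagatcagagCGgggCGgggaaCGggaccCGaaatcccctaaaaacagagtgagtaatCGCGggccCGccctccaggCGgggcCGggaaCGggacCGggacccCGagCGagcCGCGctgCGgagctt
Cdk6: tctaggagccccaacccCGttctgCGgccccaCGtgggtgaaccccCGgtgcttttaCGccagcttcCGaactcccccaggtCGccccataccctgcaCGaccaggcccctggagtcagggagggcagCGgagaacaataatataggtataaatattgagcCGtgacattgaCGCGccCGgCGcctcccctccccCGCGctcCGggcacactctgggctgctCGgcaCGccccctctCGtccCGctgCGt
Map2k7: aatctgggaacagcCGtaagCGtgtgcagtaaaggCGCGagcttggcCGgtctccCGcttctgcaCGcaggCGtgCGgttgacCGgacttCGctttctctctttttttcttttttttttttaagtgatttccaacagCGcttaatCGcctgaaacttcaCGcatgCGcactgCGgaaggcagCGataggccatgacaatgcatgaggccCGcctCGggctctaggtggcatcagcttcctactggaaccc
Kat5: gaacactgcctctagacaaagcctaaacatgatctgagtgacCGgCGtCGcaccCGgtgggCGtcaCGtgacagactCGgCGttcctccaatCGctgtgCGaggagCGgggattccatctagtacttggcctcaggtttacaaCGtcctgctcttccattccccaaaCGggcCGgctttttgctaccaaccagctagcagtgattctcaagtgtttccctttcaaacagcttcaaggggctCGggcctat
Slk: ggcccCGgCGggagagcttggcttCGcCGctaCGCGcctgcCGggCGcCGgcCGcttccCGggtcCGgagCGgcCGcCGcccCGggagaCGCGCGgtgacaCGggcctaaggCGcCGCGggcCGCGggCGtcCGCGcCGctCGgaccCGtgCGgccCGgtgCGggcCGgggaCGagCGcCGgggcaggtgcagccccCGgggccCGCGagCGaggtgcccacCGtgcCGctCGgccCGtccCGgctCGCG
Rassf5: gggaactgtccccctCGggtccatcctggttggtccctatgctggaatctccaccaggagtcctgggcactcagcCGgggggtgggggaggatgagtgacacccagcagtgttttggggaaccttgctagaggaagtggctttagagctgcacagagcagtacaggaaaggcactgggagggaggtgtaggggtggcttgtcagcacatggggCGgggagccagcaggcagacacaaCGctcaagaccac
Rptor: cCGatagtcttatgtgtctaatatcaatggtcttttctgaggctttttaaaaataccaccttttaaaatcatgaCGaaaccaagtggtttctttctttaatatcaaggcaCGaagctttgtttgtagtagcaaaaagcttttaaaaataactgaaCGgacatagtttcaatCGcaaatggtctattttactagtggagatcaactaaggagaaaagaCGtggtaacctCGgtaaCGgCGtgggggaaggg

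These stretches lay at chr19:5567774-5568023 for Ap5b1, chr19:5637291-5637540 for Rela, chr5:3343643-3343892 for Cdk6, chr8:4238490-4238739 for Map2k7 and chr19:47579769-47580018 for Slk, all on the plus strand. Rptor lay at chr11:119602655-119602904 on the plus strand, Kat5 at chr19:5610095-5610344 on the minus strand and Rassf5 at chr1:131200186-131200435 on the minus strand. Slk had 49 CpGs, Ap5b1 36, Rela 23, Cdk6 22, Map2k7 19 and Kat5 15, against 9 in Rptor and 4 in Rassf5. The median over all 27025 promoters of the RefSeq table was 6 CpGs, with quartiles of 2 and 16. That set also holds promoters of noncoding genes, since only 17492 protein-coding genes have a promoter in it. The genes shown here are all protein-coding, so it is not a like set to compare them with. Relative to its base composition Rptor was not CpG-poor, with an observed to expected CpG ratio of 1.04, whereas that of Rassf5 was 0.179 and the median of all promoters was 0.379. Only 272 of the 360 protein-coding member genes (75.6%) have a promoter in the table, so a comparison of CpG content between the classes is void and none is given.

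Motifs were searched on both strands of the same 250 bases. The GC box GGGCGG was found in Ap5b1, Rela, Slk and Rassf5, and in 33% of all promoters of the table. Here too, all promoters include those of noncoding genes. Cdk6 held TATAAA, which 13% of all promoters hold, and Cdk6 and Kat5 held the E-box CACGTG, found in 6.04% of all. CCAAT was found in Kat5 and in 34.5% of all promoters, and the NRF1 motif GCATGCGC in Map2k7 and in 2.31%. Neither TGACGTCA, present in 1.6% of all promoters, nor CCGGAAG, present in 7.07%, was found in any of the 8. A match is a description of these letters and not a bound site.

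The positions of the MACS list are rounded to 6 significant digits, so a start is known to 10 bp in the first 10 Mb of a chromosome, to 100 bp up to 100 Mb and to 1000 bp beyond. The members comprised 53 regions with the finest starts, 210 with a step of 100 bp and 127 with a step of 1000 bp. The balance of the classes differed with this step. Gene-edge regions made up 52.8% of the members with the finest starts, 44.3% at 100 bp and 29.9% at 1000 bp. A region whose start and end were rounded to the same position cannot overlap a gene in part, and 113 of the 231 upstream regions (48.9%) had equal start and end, against 0 of the 159 gene-edge regions and 391 of the other 981 (39.9%). For 127 upstream regions the deposited distance was smaller than the rounding step of the start, so on which side of the gene start the unrounded region lay is not known.

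Most gene-edge overlaps that could be compared with listed transcript positions lay across its start. The wording of the 159 regions named 177 overlaps with a transcript. For 68 of them the SICER list also gave transcript positions of the gene, and the edge lay within 10 bp of a listed transcript start in 52, of a transcript end in 0, and of neither in 16, those of Kat5, Ing1 and Cdc6 among them. The remaining 109 could not be compared. Of 83 upstream regions whose gene the SICER list names, 73 implied a gene start within 10 bp of the one given there.

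Gene-edge regions were divided between the overlapped transcript and its flank in widely varying proportions. Shares and bp inside, here and in what follows, rest on the rounded positions and are known no more finely than the rounding step. That step was 100 bp for 93 of the gene-edge regions and 1000 bp for 38. In the 141 regions that overlapped 1 transcript, the median share inside was 54.8%, with quartiles of 39.6% and 77.2% and a range of 0.995% to 99.5%, and 87 of the 141 had over 50% inside. Over all 177 overlaps, each counted once, the median was 53.4% and 101 had over 50% inside. With starts placed to 10 bp, the overlaps (n = 29) held a median of 139 bp inside the transcript (quartiles 104 and 203, range 32 to 299) and 87 bp outside it (quartiles 51 and 123, range 3 to 322). Their median width was 211 bp (quartiles 181 and 314, n = 28 regions). The corresponding upstream regions were narrower in the list, at 101 bp (quartiles 41 and 176, n = 24), and the other regions had a median of 151 bp (quartiles 86 and 246, n = 171). A wide region has more chance to reach across a gene edge, so the rule itself favours width in the gene-edge class, and no test was made.

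**Figure D1:**
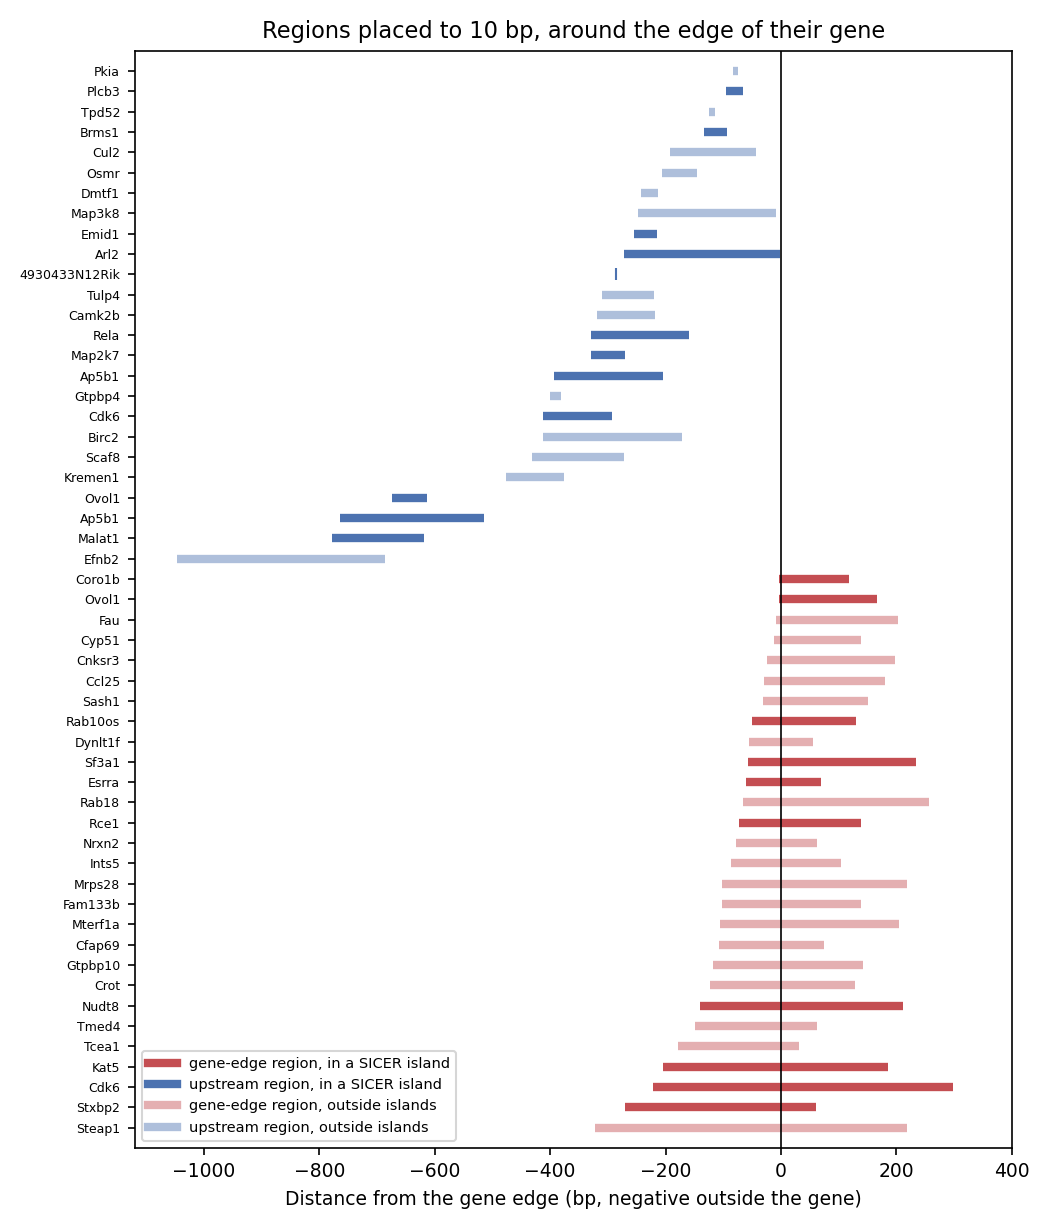
Horizontal bars show the 53 members with starts placed to 10 bp, by distance in bp from the edge of the gene named at the left, with gene-edge regions in red, upstream regions in blue and paler bars outside SICER islands. Steap1 has the widest gene-edge bar, at 541 bp, and the upstream bars of Ovol1, Malat1 and Efnb2 and 1 of the pair of Ap5b1 end over 500 bp short of the gene. The wording of the Tcea1 region also places it in an intron of that gene.

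The widest of these gene-edge regions lay at Steap1, which encodes a cell-surface metalloreductase, at 5749100 to 5749640 on chromosome 5, with 219 bp inside the gene and 322 bp outside. It lay in no island. The region at Cdk6, a cyclin-dependent kinase of the early cell cycle, was 521 bp wide (3344090 to 3344610, chromosome 5) with 299 bp inside, and lay in an island. Kat5, a histone acetyltransferase, had a region of 391 bp (5609910 to 5610300, chromosome 19) with 186 bp inside, also in an island. Stxbp2, which encodes a protein of vesicle fusion, reached next farthest out of its gene after Steap1, with 270 bp outside and 61 bp inside. Positions here and in what follows are as deposited, and their genome build is not known: the submitters' processing notes name mm10, but the gene positions implied by 336 of the 390 members differed by over 1000 bp from those of RefSeq on that assembly.

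At 13 gene edges the region overlapped 2 genes, and in all 13 the genes were on opposite strands. Their starts faced away from each other, except in the pairs whose genes overlapped. The median gap between both starts was 86 bp, with quartiles of 33 and 117 bp. In 2 of the pairs the genes overlapped, so that the gap was -191 bp for Dmr and Baiap2l1 and -462 bp for Wbscr22 and Dnajc30, and the largest gap was 358 bp, between Parp3, an ADP-ribosyltransferase, and Rrp9, a protein of ribosomal RNA processing. The region between Ncl, which encodes the nucleolar protein nucleolin, and C130036L24Rik held 432 bp of the former and 452 bp of the latter. Hgs, an endosomal sorting protein, and Arl16, a small GTPase, were 33 bp apart, and their region held 52 bp of Hgs and 916 bp of Arl16. The pairs of Ncl, Hgs, Chpf with Tmem198, Cinp with Tecpr2, and Prmt7 with Slc7a6os lay in islands, 5 of the 13 in all. A further 5 gene-edge regions overlapped 2 transcripts of the same gene, among them those at Abhd1 and Gaa, which lay in islands.

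Upstream regions were most often near the gene start. Their deposited distances rest on the rounded positions, with a step of 100 bp for 117 regions and 1000 bp for 89. Distances ranged from 1 to 982 bp around a median of 204 bp (quartiles 93 and 366), and 202 of the 231 (87.4%) lay within 500 bp. Counts in steps of 100 bp fell from 62 and 48 to 46, 29 and 17, and then stood at 6, 14, 3, 3 and 3. In the whole kilobase beyond the limit of the rule there were 13 regions, and then 4, 6 and 3 per kilobase up to 5000 bp. Just inside the limit lay the regions of Trim67 at 918 bp, Tnrc18 at 933 bp and Cysrt1 at 982 bp, and just outside it those of Agbl5 at 1025 bp, 1700012C14Rik at 1084 bp and Hivep2 at 1085 bp. Those of Tnrc18, Cysrt1 and Agbl5 lay in islands and the others did not. For Trim67 and Tnrc18 the step is 1000 bp, so the side of the limit on which their regions lay is not known.

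**Figure D2:**
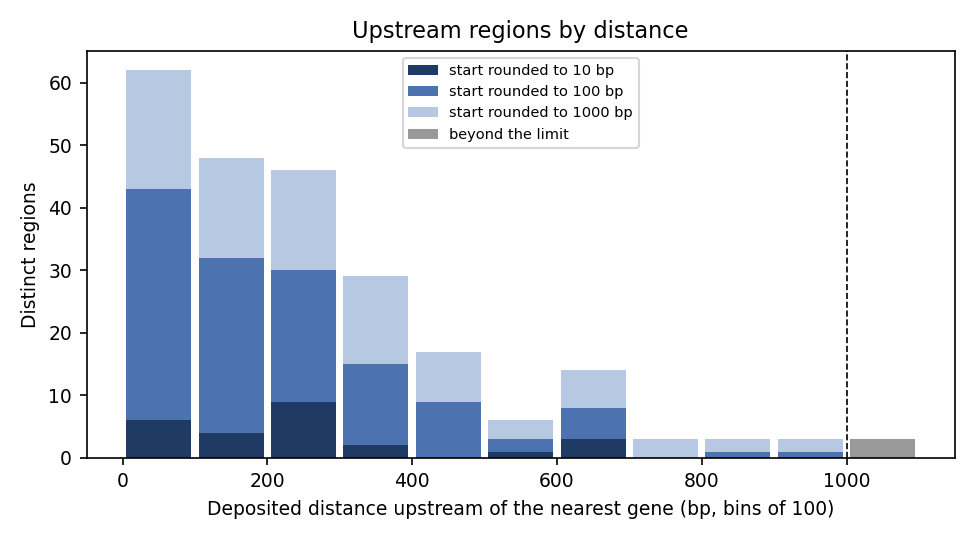
Bars show the number of distinct upstream regions by deposited distance to the nearest gene in bins of 100 bp, stacked by the rounding step of the region's start, with the 1000 bp limit as a dashed line and the next bin in grey. The nearest bin holds 62 regions and the last inside the limit 3, as does the bin beyond it.

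No difference between the classes, or between them and the other narrow regions, was called in how often they lay in SICER islands. Of the gene-edge regions, 52 of 159 (32.7%, exact Clopper-Pearson 95% interval 25.5 to 40.6%) shared at least 1 bp with a listed island, and of the upstream regions 64 of 231 (27.7%, 22.0 to 34.0%). The share over all 1371 regions was 31.3%. Gene-edge regions exceeded upstream regions by 5 percentage points (95% interval -4.14 to 14.3), a difference that Fisher's exact test, two-sided, did not call (p = 0.311, adjusted p = 0.478 over 2 tests). Members together lay in islands in 116 of 390 cases (29.7%) and the other regions in 313 of 981 (31.9%), a difference of -2.16 points (95% interval -7.41 to 3.34, Fisher's exact test, two-sided, p = 0.478, adjusted p = 0.478). Neither p shows that the shares are equal, and differences up to the ends of these intervals are not excluded by the counts. With every line of the list counted, gene-edge regions reached 44.8% and the difference passed the threshold (11 points, adjusted p = 0.00159, Fisher's exact test), but the lines repeat regions: a single gene-edge region, that of Ncl, stands on 30 of them. Among the members placed to 10 bp the order was the opposite, with upstream regions 44.0% in islands (11 of 25) and a difference, gene-edge less upstream, of -8.29 points (adjusted p = 0.584, Fisher's exact test).

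**Figure D3:**
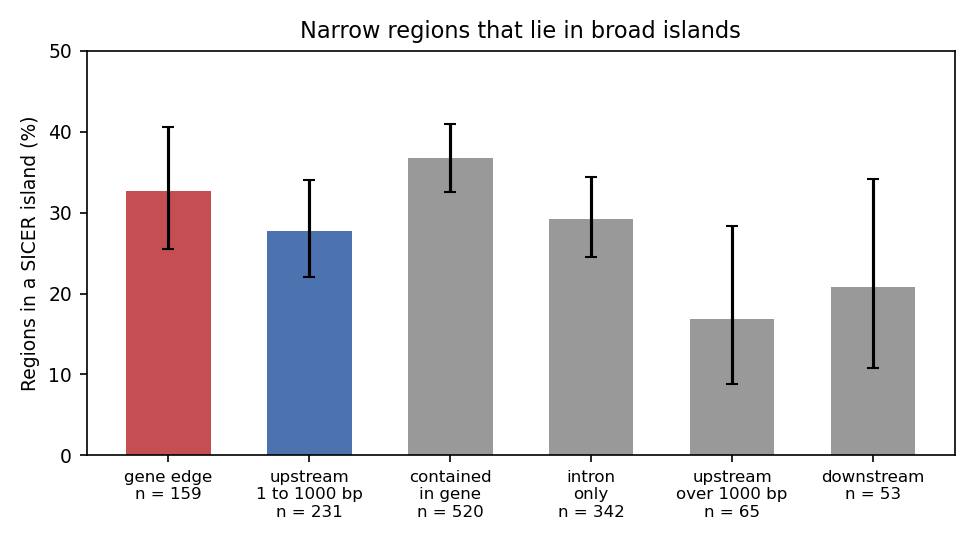
Bars give the percentage of distinct regions of each class that share at least 1 bp with a SICER island, with exact Clopper-Pearson 95% intervals and the number of regions under each bar. The intervals of gene-edge (25.5 to 40.6%) and upstream regions (22.0 to 34.0%) overlap each other and those of the 4 other classes.

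By class, the shares in islands ran from 36.7% (191 of 520) for regions contained in a gene and 29.2% (100 of 342) for intron regions to 16.9% (11 of 65) farther upstream and 20.8% (11 of 53) downstream. These were not tested against the members. Regions that the rule left out because they overlapped one gene in part and were contained in another numbered 13, of which 9 lay in islands. Islands that held a member were wider than the list as a whole: the median width was 7400 bp for gene-edge regions and 6900 bp for upstream regions, against 4800 bp over all 8242 listed islands. A wider island has more room to hold a region, and no test was made. The 116 members in islands occupied 108 distinct islands, and in 65 of the 116 the island was paired with the same gene as the region. The widest was an island of 48600 bp on chromosome 11 (119785600 to 119834199) with an upstream region of Baiap2, which encodes an adaptor of the actin cytoskeleton, followed by one of 42800 bp (117847200 to 117889999) with a gene-edge region of Pgs1, an enzyme of phospholipid synthesis.

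The members named 382 genes, 172 at gene edges and 222 upstream. By RefSeq biotype 360 were protein-coding, 15 long noncoding RNAs, 2 microRNAs, 2 small nucleolar RNAs and 3 transcribed pseudogenes. Taken per gene, an island was listed for 64 of the 172 gene-edge genes (37.2%, 95% interval 30.0 to 44.9%) and for 78 of the 222 upstream genes (35.1%, 28.9 to 41.8%). Only islands that the SICER list pairs with the gene count here and in the next shares. Ncl, whose region lay in an island paired with Snora75, is therefore not counted. The share was 42.0% (321 of 764) for genes that had narrow regions of other kinds only, and 17.2% of all 21900 protein-coding genes. A region of another class was also present at 82 of the 382 genes (21.5%).

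At 12 genes both classes occurred, which left 160 genes with a gene-edge region only and 210 with an upstream region only. No gene had 2 gene-edge regions, and 9 had 2 upstream regions. On chromosome 19, 4 members lay in a single island of 5555600 to 5573799. They were the gene-edge region of Ovol1, a transcription factor that keeps cells epithelial (5560410 to 5560580, 167 bp inside the gene and 4 bp outside), its upstream region at 614 bp, and the upstream regions of the neighbouring Ap5b1, a subunit of an adaptor complex of late endosomes, at 204 and 514 bp. Cdk6 and Ing1, an inhibitor of growth that reads histone marks, likewise had both of their regions in an island of their own. The upstream region of Cdk6 lay at 292 bp and that of Ing1 at 462 bp, and the gene-edge region of Ing1 held 139 bp of the gene (11555500 to 11555900, chromosome 8). Both regions of Mob3a, a kinase regulator, lay in an island that the list pairs with Izumo4.

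The other genes with both classes lay mostly outside islands. Nf1, which encodes the Ras inhibitor neurofibromin, had an upstream region at 294 bp (79152800 to 79153100, chromosome 11) and a gene-edge region with 107 bp inside (79153300 to 79153500). Sqle, an enzyme of cholesterol synthesis, had an upstream region at 347 bp and 54 bp of overlap, Camsap1, a microtubule-binding protein, 497 bp and 304 bp, and Hmgxb4 101 bp and 99 bp. D17H6S53E had an upstream region at 147 bp and 154 bp of overlap. Srcin1, an inhibitor of Src kinase signalling, was the only gene with 3 members, upstream at 159 and 259 bp and with 142 bp of overlap. None of these 6 genes' regions lay in an island. At Fam20c, a secretory-pathway kinase, and at Foxf1, a transcription factor of lung mesenchyme, both regions start at the same rounded position, so how far apart they lay is not known. The gene-edge region of Fam20c lay in an island, its upstream region did not, and neither did those of Foxf1. Fendrr, the noncoding RNA gene beside Foxf1, also had a gene-edge region, with 12 bp inside (123607000 to 123608000, chromosome 8), and was chosen for mention after its values were seen.

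Of the genes with 2 upstream regions, Irs1, an adaptor of insulin and growth factor receptors, had them at 85 and 285 bp in an island of 82283200 to 82289799 on chromosome 1. Both regions of Pgbd5, a gene derived from a transposase, also lay in an island. They had the same distance of 163 bp, so whether they are separate regions is not known. Outside islands were those of Slk, a kinase of the cytoskeleton, at 109 and 309 bp, Kdm4b, a histone demethylase, at 73 and 472 bp, Med26, a subunit of the Mediator complex, at 390 and 690 bp, and Vapa, a tether of the endoplasmic reticulum, at 104 and 404 bp. The regions of Tamm41, an enzyme of mitochondrial lipid synthesis, have the same start and the same distance of 107 bp, and the end of 1 of them is unreadable, so they may be a single region.

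Gene lists were counted for members against 1.64% of all protein-coding genes with a gene-edge or upstream region. For lists of this length 1 gene is 2 to 5% of the list, so shares above 1.64% rest on few genes, and none is called particular to a list. Among 34 genes of IL6 and STAT3 signalling 3 (8.82%) had a region, all upstream. They were Socs3, the feedback inhibitor of cytokine receptors, at 319 bp and in an island, Osmr, the oncostatin M receptor, at 146 bp, and Pias4, a SUMO ligase that restrains STAT factors, at 134 bp. In NF-kB signalling 2 of 30 genes had one, Rela, the p65 subunit, at 160 bp in an island, and Birc2, a ubiquitin ligase that limits cell death, at 172 bp in none. The SICER list pairs no island with Rela itself. Here and for the other gene lists, an island that holds a region need not be paired with the gene of that region. Of 48 MAP kinase genes 1 had one, Map2k7, a kinase that activates JNK, at 270 bp in an island.

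The 3 of 49 Wnt genes with a region (6.12%) all had it at the gene edge. Wnt7a, a ligand, had 65 bp inside the gene, Fzd9, a receptor, 919 bp, and Sfrp1, a secreted inhibitor, 127 bp. The regions of Wnt7a and Fzd9 lay in islands and that of Sfrp1 did not. No member was found among 33 Notch genes. In TGF-beta and BMP signalling 2 of 34 had an upstream region, Smad4, the common transducer, at 204 bp and Skil, an inhibitor of Smad factors, at 680 bp, neither in an island. In PI3K and Akt signalling 2 of 33 had one, Irs1 and Rptor, the scaffold of the mTOR complex, at 218 bp.

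Of 32 genes of the epithelial-mesenchymal transition 3 (9.38%) had a region. Besides Ovol1 these were Grhl2, a further factor of epithelial identity, whose gene-edge region held 310 bp of the gene and lay in an island, and Foxc2, a mesenchymal factor, with an upstream region at 70 bp outside islands. Among tumour suppressors 3 of 41 (7.32%) had one: Nf1, Cdkn1b, a cyclin-dependent kinase inhibitor, at 418 bp, and Rassf5, a Ras effector, at 244 bp, none in an island. All 3 of the 40 cell cycle genes (7.5%) had gene-edge regions in islands. They were Cdk6, Cdc6, which loads the replicative helicase, with 98 bp inside, and Mcm2, a subunit of that helicase, with 76 bp inside.

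The machinery of DNA methylation itself held 3 members among 22 genes (13.6%). Gadd45b, which has been linked to demethylation, had a gene-edge region with 165 bp inside, in an island that the SICER list pairs with Lmnb2. Mbd3, of the NuRD complex, had an upstream region at 223 bp in an island, and Uhrf2, a relative of the maintenance factor Uhrf1, at 303 bp in none. Among 50 histone modifiers 4 (8.0%) had a region: Kat5 at the gene edge, and upstream Kdm4b, the methyltransferases Ezh1 at 222 bp and Setd2 at 100 bp. Of these only Kat5 lay in an island.

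Lists of other cell types held few or no members. None was found among 24 immune cell markers, 22 markers of lung epithelium, 24 housekeeping genes, 30 imprinted genes or 34 germline genes. Of 18 endothelial and stromal markers 1 had a region, Flt1, a VEGF receptor, with 566 bp inside and in an island. For lists this short, 1.64% corresponds to less than 1 gene each. Which cells of the metastases the DNA came from is not measured by these lists.

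Among gene families taken by symbol, none of 1110 olfactory receptors, 100 ribosomal proteins or 40 proteasome subunits had a member. Zinc finger genes named Zfp had 8 of 397 (2.02%), 7 of them upstream and 1 at the gene edge, and solute carriers 6 of 375 (1.6%), counted with Slc7a6os, which has the prefix but encodes no transporter. Mitochondrial ribosomal proteins had 3 of 78 (3.85%), Mrpl54, Mrps18a and Mrps28, all at the gene edge. Translation initiation factors had 4 of 56 (7.14%), Eif2s1 and Eif2s2 at the edge and Eif2b2 and Eif5 upstream. Rab GTPases had 3 of 69, Rab18 and Rab5c at the edge and Rab5a upstream. Hoxd13, a factor of limb patterning, was the only member of 39 Hox genes, with 34 bp inside.

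Members were spread over all chromosomes considered. Chromosome 11 held most, 70 of its 225 regions (31.1%), 21 at gene edges and 49 upstream, and 31 of these 70 lay in islands. Chromosome 5 had the largest number of gene-edge regions, 28, beside 13 upstream, and with 41 of 106 regions (38.7%) the largest share of members. The smallest share was that of chromosome 9, with 11 of 53 (20.8%). Chromosome 19 had 14 of each class among 129 regions (21.7%), 15 of them in islands. On chromosome 16, outside the rule, 54 regions lay at a gene edge and 44 upstream, together 29.3% of its 334 regions.

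**Figure D4:**
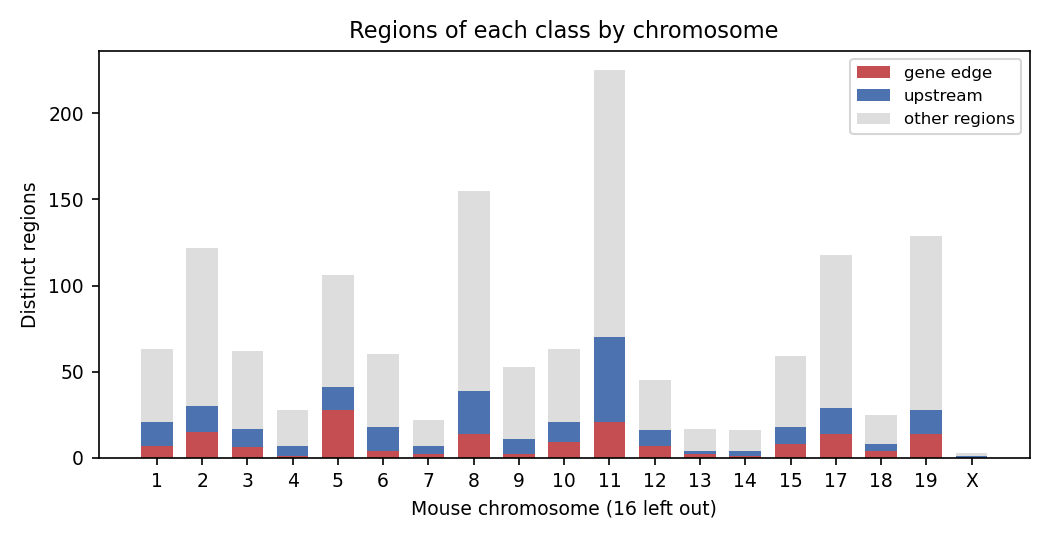
Stacked bars give the number of distinct regions per mouse chromosome, with gene-edge regions in red, upstream regions in blue and all other regions in grey. Chromosome 11 has the tallest bar, with 70 members among 225 regions, and chromosome 5 the largest number of gene-edge regions, 28.

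Another narrow region lay within 1000 bp of 33 gene-edge regions (20.8%), 65 upstream regions (28.1%) and 234 of the other regions (23.9%). These gaps rest on the rounded positions. The step itself was 1000 bp for 38 gene-edge and 89 upstream regions, so the shares of the classes are not directly comparable. Genes were on the plus strand for 89 gene-edge regions and on the minus strand for 70, and for 114 and 117 upstream regions. The largest numbers of lines for a gene-edge region were 30 at Ncl, 28 at Abhd1 and 22 at Nol11, a nucleolar protein, and the largest for an upstream region was 16 at Rnf24, while 204 of the 390 members stood on a single line. The sources used here do not say what a repeated line stands for.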

How the data were processed

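The deposited values are base positions, distances and gene names. Per the submitters' processing notes, the authors aligned reads with Bowtie2 (given as 2.10) to mm10 and called regions with MACS (given as 1.4) and SICER. MACS2 stands in the name of the narrow list, and the sources used here do not say whether libraries were pooled. Identical lines were collapsed, 4304 to 1705 regions, by chromosome, start and end. An unreadable end, at 1 member, was set to the start. Percentages of overlap were turned into bp with the rounded positions, on which they gave whole bp. Genes were matched to RefSeq (GRCm38) by symbol or synonym on the same chromosome, for all 390 members. Shares have exact Clopper-Pearson 95% intervals, and the 2 Fisher's exact tests were adjusted together by Benjamini-Hochberg with a threshold of 0.05 (scipy 1.17.1). Intervals of differences are Newcombe's. Scripts were tested on simulated data. Named genes were those with 2 or more regions of a class, with both classes, or in a gene list, the nearest to the 1000 bp limit and the widest or farthest-reaching gene-edge regions placed to 10 bp, and others are examples of a count. Members and lists were chosen with earlier results of these data known. Alternatives are given in the closing section.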

Additional observations from a re-analysis of the deposited data

How the results depend on the processing

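Counting every line in place of distinct regions raised the numbers to 453 gene-edge and 441 upstream regions, the gene-edge share in islands to 44.8% and the difference between the classes to 11 points (adjusted p = 0.00159, Fisher's exact test). With 1 region per gene and class, the difference between members and other regions changed sign to 0.0466 points (adjusted p = 1, Fisher's exact test). Among starts placed to 10 bp, 44.0% of upstream regions lay in islands and the class difference was -8.29 points (adjusted p = 0.584, Fisher's exact test). Where gene positions equalled RefSeq within 1000 bp, upstream regions reached 38.5% and the class difference was 0 points (adjusted p = 1, Fisher's exact test), with 26 regions in each class. The causes were not tested. With an upstream limit of 500 bp, 1 TGF-beta gene was left in place of 2. Leaving out chromosome 11, leaving out regions of equal start and end, and limiting the other regions to those over a gene were added after seeing the data, and changed no call. The split by RefSeq positions was not run for members against other regions, nor were the CpG alternatives, since that comparison is void. No paired analysis was possible because libraries have no values of their own here, and no replicate could be left out.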

Other observations

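Beside the protein-coding genes, members lay at a few noncoding genes that the naming rule does not cover and that were chosen after their values were seen. Malat1, an abundant nuclear RNA that has been studied in metastasis, had an upstream region at 618 bp (5803290 to 5803450, chromosome 19) in an island of 20000 bp that the list pairs with the same gene. Mir1932 and Mir7238 had upstream regions at 785 and 263 bp, both in islands paired with other genes, Slc26a11 and Ankrd10. The small nucleolar RNA genes were Snora7a, with an upstream region at 878 bp in an island paired with it, and Snora78, with a gene-edge region that held 79 bp of it and lay in no island. The distances of Mir1932 and Snora7a are smaller than the rounding step of their starts, 1000 bp, so the side on which these regions lay is not known.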
